A study of Xenopus laevis with 3 samples.

Results

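The clones described here are the 185 of 20618 arrayed Xenopus laevis clones with the strongest positive ratio between embryos treated with an agonist and embryos treated with an antagonist of the retinoic acid receptors (RARs). They were chosen by their values: a mean log2 ratio of at least 1, which is 2-fold, over 3 arrays, with a value above 0 on every array. The share that met this rule was 0.897% of the clones. Since the same ratios chose the clones, their size and their limma p-values are given as a description, and nothing is read from them.

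Xenopus laevis, the African clawed frog, is a standard model of the early vertebrate embryo. Whole embryos were kept in dishes of 25 at 16 to 19 °C and treated from blastula (stage 7) to gastrula (stage 11). One lot received the synthetic RAR agonist TTNPB at 1e-06 M, and the other received the RAR antagonist AGN193109 at 1e-06 M. Each of the 3 arrays carried RNA of agonist-treated embryos in its first channel and RNA of antagonist-treated embryos in its second, and the 3 arrays form 1 group. The labels give no strain, sex or stage of RNA collection, and do not say whether the arrays came from separate batches of embryos, so that p-values reflect the spread among arrays that may be technical repeats. Vehicle-treated embryos appear in the protocol but not in a channel of these arrays, so a ratio holds the effects of both compounds.

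RARs are nuclear receptors that bind DNA as partners of the retinoid X receptors. Retinoic acid made by retinaldehyde dehydrogenases turns them from repressors into activators, and enzymes of the Cyp26 family remove the ligand. In the vertebrate embryo this pathway patterns the axis from head to tail, above all in the hindbrain, where Hox genes of the 3′ end of the clusters are known targets. An excess of retinoid in early frog embryos is known to reduce head structures, and a block of the receptor is known to disturb the hindbrain and trunk. The array clones come with plate and well names, of which 0 were found in a table of 44456 Xenopus laevis genes. The clones are therefore described by rank, by array and by well, and their genes, sequences and positions in the genome were not analysed here.

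The direction of the deposited ratio is not stated. The word positive below refers to the deposited sign, and does not say whether the agonist or the antagonist embryos held more of a transcript. The log base is not stated either and was read from the values as natural. Of 168 differences between exactly recurring values, 144 matched the natural log of the square root of a ratio of whole numbers up to 200, against 0 for a log2 or log10 reading. The square root is the form of a mean of 2 natural log ratios, and 1 natural log ratio alone matched 2 differences. Each array value may therefore be an average of 2 readings. Deposited values were therefore divided by the natural log of 2 and centred on each array's median. RNA came from whole embryos, so a larger share of cells of one type and more RNA per cell cannot be told apart in any of these ratios.

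Most of the 185 clones had ratios between 2-fold and 4-fold, and a few had larger ones. The median of the mean log2 ratios was 1.36, or 2.57-fold, and the lower and upper quartiles were 1.14 and 1.66. A mean log2 ratio of 1 to under 1.5 was held by 120 clones, or 64.9%. A further 38 clones lay from 1.5 to under 2, and 19 from 2 to under 3. The top class, at 3 or more, held 8 clones. The eighth clone had a mean of 3.05 with a 95% interval of 2.74 to 3.36. The ninth had a mean of 2.79 with an interval of 2.35 to 3.24. The limit of 3 serves description only, and a separation of the clones there was not tested.

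The largest ratio was that of XL044a07, a clone in row a and column 7 of plate 44. Its log2 ratios were 4.1, 4.04 and 3.92 on arrays 1, 2 and 3, the highest value of each array. The mean was 4.02 ± 0.09 (SD, n = 3), or 16.2-fold (limma adjusted p = 4.09e-10), and limma's 95% interval reached from 3.76 to 4.29. The next clone, XL036f08 in row f and column 8 of plate 36, read 3.95, 3.25 and 3.69. It ranked 2 on arrays 1 and 3 and 5 on array 2, and its mean was 3.63 ± 0.35 (SD, n = 3). This is 12.4-fold, and the limma adjusted p was 1.93e-09. The 3 values of each clone lay far above 0, and those of the second clone varied more between arrays.

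The other 6 clones of the top class came from 6 further plates. The third-ranked clone read 3.95, 3.45 and 3.47 and the fourth 3.59, 3.45 and 3.54, so their values overlapped. The fifth and sixth had means of 3.5 ± 0.26 and 3.46 ± 0.12 (SD, n = 3). The 95% intervals of the second to the sixth clone overlapped one another, and the interval of the first, from 3.76, overlapped those of the second to the fifth, which reached 3.94, 3.91, 3.79 and 3.79. The interval of the sixth clone ended at 3.72, below that of the first. Overlap of intervals is no test of a difference, and the order among these clones was not tested. The seventh read 3.24, 3.17 and 3.02 and the eighth 2.86, 2.83 and 3.45. Of these 8 clones, 7 were among the 8 highest of array 1, 7 among the 8 highest of array 2 and 8 among the 8 highest of array 3. The ninth-ranked clone, just below this class, was less even, at 3.59, 2.07 and 2.72 on arrays 1, 2 and 3.

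**Figure D1:**
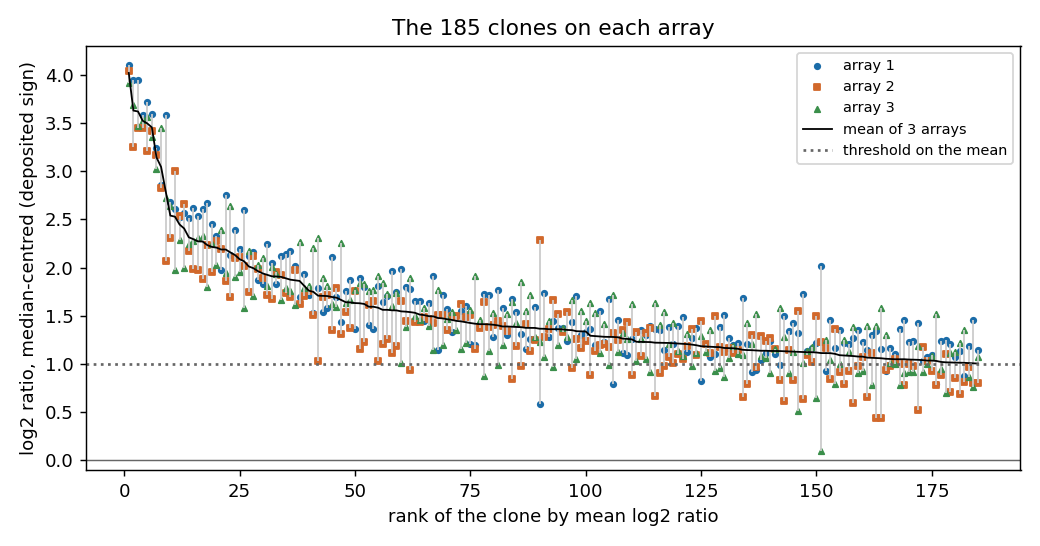
Log2 ratio, centred on the array median and in the deposited sign, of the 185 clones on array 1 (circles), array 2 (squares) and array 3 (triangles), with the clones ordered by the mean of the 3 arrays (black line). Grey bars join the values of a clone; 8 clones stand at a mean of 3 or more, and every value lies above 0 by the rule.

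All 3 arrays carried the ratio, with array 1 reading largest and array 2 smallest in many clones. On array 1 the 185 clones ranged from 0.58 to 4.1 with a median of 1.42. On array 2 they ranged from 0.44 to 4.04 with a median of 1.3, and on array 3 from 0.1 to 3.92 with a median of 1.41. Array 1 held the highest of the 3 values in 95 clones, array 3 in 64 and array 2 in 26. Array 2 held the lowest value in 90 clones, array 3 in 63 and array 1 in 32. With the medians of source plate, well row and well column removed from each array, array 2 was lowest in 108 clones and array 1 highest in 101.

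A log2 ratio of at least 1 was reached on all 3 arrays by 118 of the 185 clones, on 2 arrays by 54 and on 1 array by 13. By single array, 175 clones reached it on array 1, 143 on array 2 and 157 on array 3. Over all clones, 1.48%, 1.04% and 1.27% reached it on arrays 1, 2 and 3. Of the 305 clones at or above 1 on array 1, 57.4% were among the 185, against 66.5% of the 215 on array 2 and 59.9% of the 262 on array 3. The rest of those clones had a mean under 1.

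The values of one clone usually lay close together. The difference between its highest and lowest array had a median of 0.44 on the log2 scale, and it exceeded 1 in 10 of the 185 clones. The median SD over the 3 arrays was 0.232, compared with 0.194 over all clones. The tightest clone read 1.37, 1.34 and 1.37. The widest read 2.01, 1.23 and 0.1, and its mean of 1.11 had the largest limma adjusted p of the set, 0.00608. By size of the mean, the median SD was 0.212 from 1 to under 1.5, 0.229 from 1.5 to under 2, 0.284 from 2 to under 3 and 0.191 for the top class, with no steady order.

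For the pair of arrays 1 and 2, Pearson's r over the 185 clones was 0.82 and Spearman's rho 0.619. The pair of arrays 1 and 3 gave 0.782 and 0.555, and the pair of arrays 2 and 3 gave 0.749 and 0.532. These are descriptions over clones, which share the arrays and may share transcripts, and the choice of clones by their mean affects them. The values of arrays 1 and 2 were within 0.5 of each other in 151 clones, those of arrays 1 and 3 in 145 and those of arrays 2 and 3 in 140. The SD of the difference for these pairs in order was 0.37, 0.41 and 0.43 over the 185 clones. Over all clones it was smaller, at 0.34, 0.36 and 0.41.

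By the choice of the clones, a test of their sign on the same arrays had little room for another outcome, and its counts are given only as a description. All 185 passed limma's moderated test against 0 at an adjusted p under 0.05, where 8.87% of all clones passed on the positive side. The 95% interval of the mean lay wholly above 1 for 103 clones and included 1 for the other 82. These intervals use the arrays that chose the clones and are not adjusted over clones. They therefore cannot tell which clones have a ratio of at least 2-fold. In limma's test against 1.5-fold, 140 of the 185 passed. They were the only clones to pass it on the positive side, or 0.679% of all clones. With each clone's own variance in place of limma's pooled one, 0 of the 185 passed after adjustment, as did 0 of all 20618 clones on the positive side. Before adjustment 174 had a p under 0.05, a level that 9.88% of all clones reached on the positive side.

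The threshold cut through a continuous range. The clone just inside it read 1.14, 0.8 and 1.07 on arrays 1, 2 and 3, a mean of 1.004. The clone just outside read 0.99, 0.53 and 1.46, a mean of 0.995. The 2 differed by far less than the SD of either, at 0.18 and 0.47. In the 0.1 above the threshold lay 31 clones and in the 0.1 below it 57. The requirement of a positive value on every array removed 0 clones with a mean of at least 1.

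To read the ratio on an array that took no part in the choice, clones were chosen by the same rule on 2 arrays and followed on the third. Of 175 clones chosen on arrays 2 and 3, all 175 were above 0 on array 1, where their median log2 ratio was 1.39 and 85.1% were at least 1, against 1.48% of all clones. Of 218 chosen on arrays 1 and 3, 212 were above 0 on array 2, with a median of 1.17 and 62.8% at least 1, against 1.04% of all clones. Of 210 chosen on arrays 1 and 2, 205 were above 0 on array 3, with a median of 1.24 and 68.1% at least 1, against 1.27% of all clones. By centring, 50% of all clones lie above 0 on each array. On the 2 arrays used, the medians of the mean log2 ratio were 1.35, 1.34 and 1.31 for the choices without arrays 1, 2 and 3. No p-value was attached, since the array not used is a single sample and clones are not replicates. The arrays may be technical repeats, so the array not used may not stand for a separate batch of embryos. Of the clones chosen without arrays 1, 2 and 3 in turn, 159, 179 and 171 also met the rule on all arrays. With the medians of source plate, well row and well column removed first, the medians on the array not used were 1.45, 1.17 and 1.33. Each array had the agonist RNA in its first channel. A difference between channels could therefore recur on the array not used, and its part was not tested.

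Clones with larger ratios were all high on the array not used. At 4-fold or more on the 2 arrays used, 25, 30 and 27 clones were chosen without arrays 1, 2 and 3, and each of them was at least 1 on the remaining array. All 11 clones that were at or below 0 on the array not used had been chosen with a smaller mean. Of the 6 such clones on array 2, 4 were strongly negative there, at -3 or below, with the lowest at -4.21. On array 3 the 5 such clones went down to -1.2. None of these 11 is among the 185. Each had a mean under 1 over the 3 arrays, since the requirement of 3 positive values removed 0 clones with a larger mean.

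**Figure D2:**
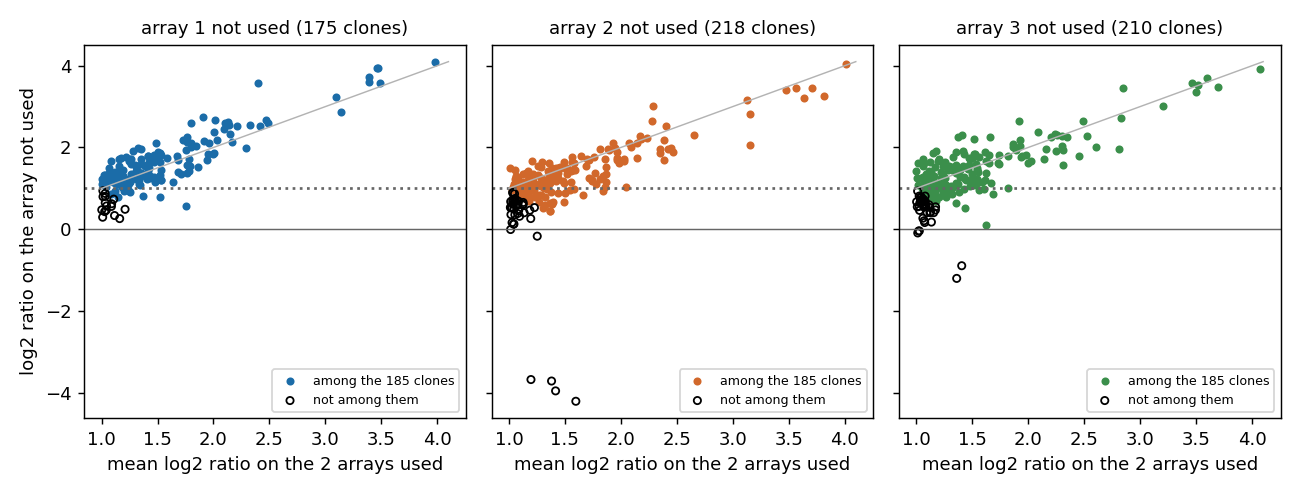
Clones chosen on 2 arrays (mean log2 ratio at least 1, both above 0; horizontal axis) and their log2 ratio on the array not used (vertical axis), 1 panel for each array. Filled points are among the 185 clones and open points are not; the dotted line marks a log2 ratio of 1 and the grey diagonal equal values. All 175 clones followed on array 1 lie above 0, and 4 clones on array 2 lie at -3 or below.

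For scale, the same rule on the negative side gave 215 clones, with means from -4.07 to -1. The positive clones varied less between arrays, with a median SD of 0.232 against 0.347. The gap was widest at 4-fold and over, with 27 clones a side, where the median SD was 0.261 on the positive side and 0.658 on the negative side. There the SDs ranged from 0.069 to 0.762 and from 0.302 to 0.974, so the sides overlapped. From 2-fold to under 4-fold the median SD was 0.221 in 158 positive clones and 0.309 in 188 negative ones. A span of over 2-fold between arrays occurred in 5.41% of the positive and 22.8% of the negative clones. All 3 arrays reached 2-fold in 63.8% of the positive and 39.5% of the negative clones. These are descriptions, without a test, since clones are not replicates.

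The mark used here for faint features fell on few of the positive clones. A feature was marked as faint where the square of its ratio, apart from a constant per array, resolved to a ratio of whole numbers up to 600. This takes it that low intensities give such ratios, which no intensity was at hand to check. With whole numbers limited to 600, fewer of them can give a larger ratio. Shares of marked clones therefore depend in part on the size of the ratio. The mark fell on 8 of the 185 clones (4.32%) on at least 1 array, on 11.4% of all clones and on 92 of the 215 negative clones (42.8%). The 8 marked positive clones had means of 1.04 to 1.36. At 4-fold and over it fell on 0 of 27 positive and 4 of 27 negative clones. Without the marked clones, the median SD from 2-fold to under 4-fold was 0.215 on the positive and 0.296 on the negative side, and at 4-fold and over 0.261 and 0.667. The part of faint signal in the spread was not tested.

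**Figure D3:**
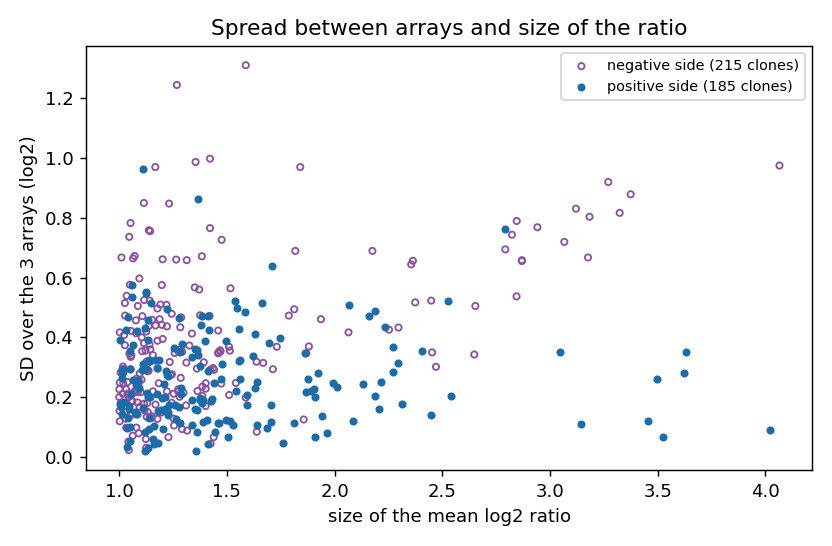
SD over the 3 arrays (vertical axis, log2 scale) against the size of the mean log2 ratio (horizontal axis) for the 185 positive-side clones (filled) and the 215 negative-side clones (open). At a size of 2 and over, the positive clones have a median SD of 0.261 and the negative clones 0.658.

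The positive clones were spread over the source plates. They came from 52 of 55 plates, with a median of 4 to a plate and at most 8, on plate 17, or 2.17% of its clones. The 5 plates with most members held 35 of the 185 clones (18.9%), while the 5 plates with most negative clones held 57 of 215 (26.5%), with 15 on plate 47. Each set of 5 of the 55 plates was picked for its counts, which raises both shares. Plates 9, 15 and 51 held 0 positive clones. A single pair of the 185 clones lay in neighbouring wells, a count with no expected number to set beside it. Negative clones came from 50 plates. On 47 plates clones of both sides were present, a count that also has no expected number beside it.

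Within the plates, the number of positive clones differed between the well rows with the highest and the lowest medians on array 2. Rows a and i, with array 2 medians of 0.28 and 0.29, held 34 of the 185 clones (18.4%), against 12.3% of all clones. Their medians on array 1, at 0.17 and 0.2, were also the highest of any row, while rows e and m read -0.05 and -0.03 there. Rows e and m, with array 2 medians of -0.4 and -0.35, held 13 (7.03%), against 12.7% of all clones. With the plate, row and column medians removed, rows a and i held 12.8% of the clones that met the rule, and rows e and m 11.2%. These rows were picked for their array 2 medians, and removing the medians of rows from the values that choose the clones moves these shares by construction. Row h held 5 positive clones, or 0.38% of its clones against 0.897% of all clones, and 35 negative ones, or 2.66% of its clones. Row h was picked as the row with the fewest positive and the most negative clones. Its medians were -0.08, 0 and -0.06 on arrays 1, 2 and 3. Row p, with medians of -0.08, 0.03 and -0.03, held 14 positive and 12 negative clones. Row g, with medians of -0.07, -0.03 and -0.05, held 10 and 14. The part of row medians in the counts of row h was not tested.

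The row medians of all clones ran alike in rows a to h and in rows i to p, with r over 8 row pairs of 0.982, 0.996 and 0.934 on the 3 arrays in order, given as a description. Among the 185 clones, those of rows e and m were low on array 2, by a median of 0.67 and 0.81 below the mean of arrays 1 and 3 in rows e and m. Over all clones of rows e and m the median of this difference was -0.38 in each. In rows a and i it was -0.03 and -0.02 among the 185 clones and 0.18 and 0.17 over all clones. Members of rows d, g and k were also low on array 2, with medians of -0.35, -0.3 and -0.3, and those of rows f and n were at -0.27 each. Over all clones of rows d, g and k the medians were -0.16, 0.01 and 0.07. The values of rows e and m among the 185 clones rest on 7 and 6 clones.

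Removing position changed which clones near the threshold met the rule. It left 179 clones, of which 164 were among the 185. These were 88.6% of the original and 91.6% of the new list. The 21 clones that were lost had original means of up to 1.23, and their means without position medians were no lower than 0.83. On the log2 scale, position medians contributed between -0.33 and 0.31 to a clone's mean, with a median of 0.03. Clone XL044a07 read 3.78, 3.73 and 3.76 on arrays 1, 2 and 3 without position medians, with an SD of 0.03, compared with 0.09 before. Clone XL036f08 read 3.92, 3.37 and 3.54, with an SD of 0.28. Over the 185 clones the median SD went from 0.232 to 0.215, and r became 0.859 (arrays 1 and 2), 0.785 (1 and 3) and 0.815 (2 and 3).

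**Figure D4:**
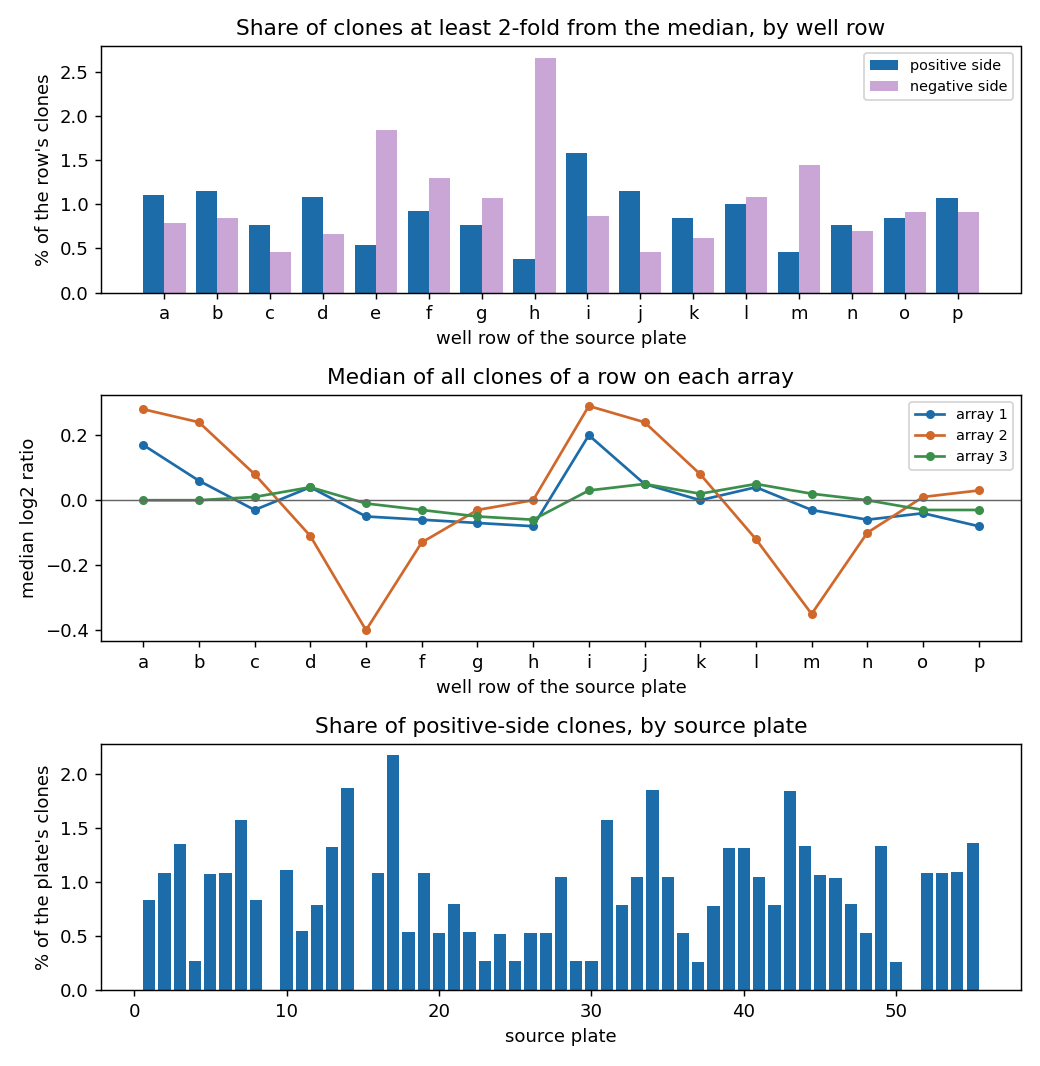
Top, the share of each well row's clones (%) that met the rule on the positive side (dark bars) and on the negative side (light bars). Middle, the median log2 ratio of all clones of a row on each of the 3 arrays, with array 2 lowest in row e (-0.4) and highest in row i (0.29). Bottom, the share of each source plate's clones that met the positive rule, at most 2.17% on plate 17.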

How the data were processed

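The authors deposited 1 table with 3 columns of log ratios, 1 for each 2-channel array, read here as natural log values with 1 constant per array. For the scanner, dyes, background correction and normalisation, no source used here gives the authors' choices. The deposited natural log medians of the clones were -0.039, -0.024 and -0.08 on arrays 1, 2 and 3. Of 20799 rows, 181 control rows (names beginning with Contr) were left out and 20618 clones kept, with 0 missing values. Values were divided by the natural log of 2 and centred per array. Limma 3.58.1 in R 4.3.3 (intercept, eBayes) tested the mean against 0 over all clones, two-sided, with Benjamini-Hochberg adjustment and a threshold of 0.05. The fit was also run on simulated data, with normal noise of limma's own variances and no plate or row effects. That run checks the code, and not how well the model suits these arrays. Pooled variance supplied 11.8 of 13.8 degrees of freedom. The number of arrays limits the precision, and no depth or intensity enters. The members and the rules were chosen with earlier results of these data known. With no gene names, the rule for named items left the 2 largest means, and the gene lists were not run. Position medians (plate, row, column) were removed in 5 rounds. Alternatives covered centring, scale, log base, thresholds, faint clones, the variance model and the arrays used.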

Additional observations from a re-analysis of the deposited data

How the results depend on the processing

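Of 14 alternatives for the number of clones that met the rule (185), 10 stayed within 1.5 times of it, from 159 without centring to 218 without array 2. Those without centring, with quantile normalisation (181) and without faint clones (177) lay wholly within the 185. With the values read as log2, 72 clones met the rule, or 38.9% of the 185. The count and all fold values thus depend on the log base, which is not stated and was read from the values. The others changed the thresholds of the rule: 118 clones with every array at 2-fold, 747 at 1.5-fold and 27 at 4-fold. Leaving out each array in turn gave 175 to 218. Of 10 alternatives for the 185 clones past limma's adjusted threshold, 9 kept 140 to 185, with 184 to 185 when an array was left out. The 140 came from the test against 1.5-fold and were the only clones to pass it on the positive side, or 0.679% of all clones. The fit without moderation kept 0, with 174 at an unadjusted p under 0.05, against 9.88% of all clones on the positive side. Arrays that chose the clones enter each of these fits, so the counts are a description and no measure of robustness. The median of the means, 1.36, became 1.29 without centring and 1.33 to 1.39 with an array left out. For clones chosen on arrays 1 and 3, the median on array 2, 1.17, became 1.3 with quantile normalisation. This method gives the 3 arrays the same distribution. The medians on arrays 1 and 3, when not used for the choice, went down, from 1.39 to 1.34 and from 1.24 to 1.18. The cause was not tested. The 2 named clones passed limma's threshold in 7 of 8 alternatives, and not without moderation. Each array sets agonist against antagonist RNA directly, so the test of the mean ratio against 0 already uses this pairing. With no intensities, signal over background has no value here.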

Other observations

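The 181 Contr rows, whose content their names do not state, had mean log2 ratios from -1.86 to 0.81 relative to the clones. On the positive side 0 of the 181 met the rule used for the clones, which 0.897% of the clones met. On the negative side 6 of the 181 met its counterpart, against 215 of the 20618 clones. These counts were not tested.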
